A study of Homo sapiens with 6 samples.

Results

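Transcripts of 10 genes of the Notch pathway were followed in SUM159 cells with and without knockdown of TβRIII: the 4 receptors NOTCH1, NOTCH2, NOTCH3 and NOTCH4, the 4 ligands JAG1, JAG2, DLL1 and DLL4, and the targets HES1 and HEY1. The genes were chosen by name and pathway role, with earlier results of these data known, and all 10 were measured, each by 1 transcript cluster (the group of probes that stands for a gene on the array) with a single gene symbol, out of 18276 genes on the arrays. SUM159 cells are an established line from a human breast cancer and stand for the mesenchymal stem-like type of triple negative tumor. Control cells (3 arrays) and TβRIII-KD cells (3 arrays, labelled TGFBR3KD) were both grown in three-dimensional matrigel, a matrix from a mouse tumor, and both were sampled at day 6 with no further treatment. The knockdown cells carried a stable lentiviral short hairpin RNA against TGFBR3 and had been selected with puromycin. The microarray methods do not name the hairpin, while the study's text says that a single hairpin served the later experiments, and the vector of the control cells is named only as a control vector. Each group is thus 1 cell population, in which an effect of the hairpin outside TGFBR3 cannot be told apart from that of the knockdown.

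Notch is a receptor that also carries the signal itself. A ligand of the Jagged or Delta-like family on one cell binds the receptor on its neighbor, ADAM proteases and then γ-secretase cut the receptor, and the freed intracellular part enters the nucleus, where it joins the DNA-binding protein RBPJ and switches on genes such as HES1 and HEY1. In the mammary gland the pathway takes part in the choice between luminal and basal cell fates, and several of its genes have been studied in triple negative breast cancer.

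The HES and HEY families include targets of this pathway, though not every member need answer to Notch, or to Notch alone. The sequence before the start of HES1 is shown because it holds a match to GTGGGAA, letters that RBPJ can bind. The 250 bases before the start of HES1 in RefSeq (GRCh38.p14, chr3:194135898-194136147, plus strand) are given 5′ to 3′, with the match in capitals at -85 to -79 from the start.
HES1: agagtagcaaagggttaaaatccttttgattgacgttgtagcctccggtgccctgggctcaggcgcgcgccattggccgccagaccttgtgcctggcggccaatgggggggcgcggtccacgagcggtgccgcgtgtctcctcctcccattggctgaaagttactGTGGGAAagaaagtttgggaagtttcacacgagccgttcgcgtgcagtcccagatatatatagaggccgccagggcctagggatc
Of 9 HES and HEY genes with a RefSeq promoter entry, 5 held GTGGGAA or its reverse complement TTCCCAC in these 250 bases, where 5.43% of all 35116 promoters did. The other matches are shown with 15 bases on each side, read in the direction of the gene and with the match in capitals, to let the surroundings be compared.
HES4 (chr1:1000153-1000189, minus strand): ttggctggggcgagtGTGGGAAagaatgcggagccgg
HES5, nearer match (chr1:2530323-2530359, minus strand): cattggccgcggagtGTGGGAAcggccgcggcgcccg
HES5, farther match (chr1:2530466-2530502, minus strand): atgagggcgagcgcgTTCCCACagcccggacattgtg
HEY2 (chr6:125749404-125749440, plus strand): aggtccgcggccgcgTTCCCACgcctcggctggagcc
HEYL (chr1:39639800-39639836, minus strand): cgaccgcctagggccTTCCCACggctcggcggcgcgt
A match is a description of the letters, not a measured binding site. Of the 10 genes, 8 had a promoter entry, and among these HES1 held the motif. No entry was found for DLL1 and HEY1.

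TGFBR3, the target of the hairpin, had log2 signals of 10.81, 10.89 and 10.56 on the control arrays and 9.72, 10.01 and 10.16 on the TβRIII-KD arrays, which did not overlap (log2 fold change -0.79, SE 0.13, adjusted p = 0.0145 from limma). Its adjusted p was 0.0770, 0.0554 and 0.0625 without control 1, control 2 or TβRIII-KD 2, and 0.198 by the methods' t-test, the unpaired test of the study's statistics section with the same adjustment. After adjustment the methods' t-test passed no member, and no gene of the pathway and marker lists read below. A call lost by it is thus not particular to the gene in question. On the second principal component TβRIII-KD 3 lay farthest from the other arrays. Markers of mesenchymal cells had high signals, with a control mean of 13.07 for VIM, 13.55 for FN1 and 12.24 for CD44, while 6 of 8 luminal markers, among them ESR1 (6.33), PGR (5.08), EPCAM (5.95) and CDH1 (5.35), lay below the median array signal of about 7.69 in controls. The others, KRT18 (11.07) and GATA3 (7.73), lay above it. Whether replicate arrays stand for separate cultures is not stated. The p-values thus set each difference against a spread between arrays that may be only technical, and they may not hold for new cultures. A change of the cells in the culture cannot be told apart from a change of RNA per cell.

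NOTCH2 fell and JAG2 rose in TβRIII-KD cells, and these were the members that passed the test, an adjusted p under 0.05 from limma over all transcript clusters. The signal of NOTCH2, a receptor, was 1.53-fold higher in controls, and that of JAG2, a Jagged ligand, 1.30-fold higher in TβRIII-KD. NOTCH2 also passed the study's cutoff, which adds an absolute log2 fold change over 0.5. At that cutoff 1 of 10 members was called, where 2.26% of all transcript clusters were: 0 members were higher, against 0.777% of all clusters, and 1 was lower, against 1.49%. Without the fold limit 2 of 10 members passed, where 3.35% of all transcript clusters did: 1 was higher, against 1.24%, and 1 lower, against 2.11%. With so few members these shares cannot be read as a property of the pathway. The mean signal was higher in TβRIII-KD for 9 of 10 members, NOTCH2 being the exception, as it was for 54.7% of all transcript clusters. The median log2 fold change was 0.14 over the members and 0.014 over all transcript clusters. The arrays of both groups did not overlap for 5 of 10 members, NOTCH1, NOTCH2, JAG2, DLL4 and HES1, where this was so for 20.7% of all transcript clusters.

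**Figure D1:**
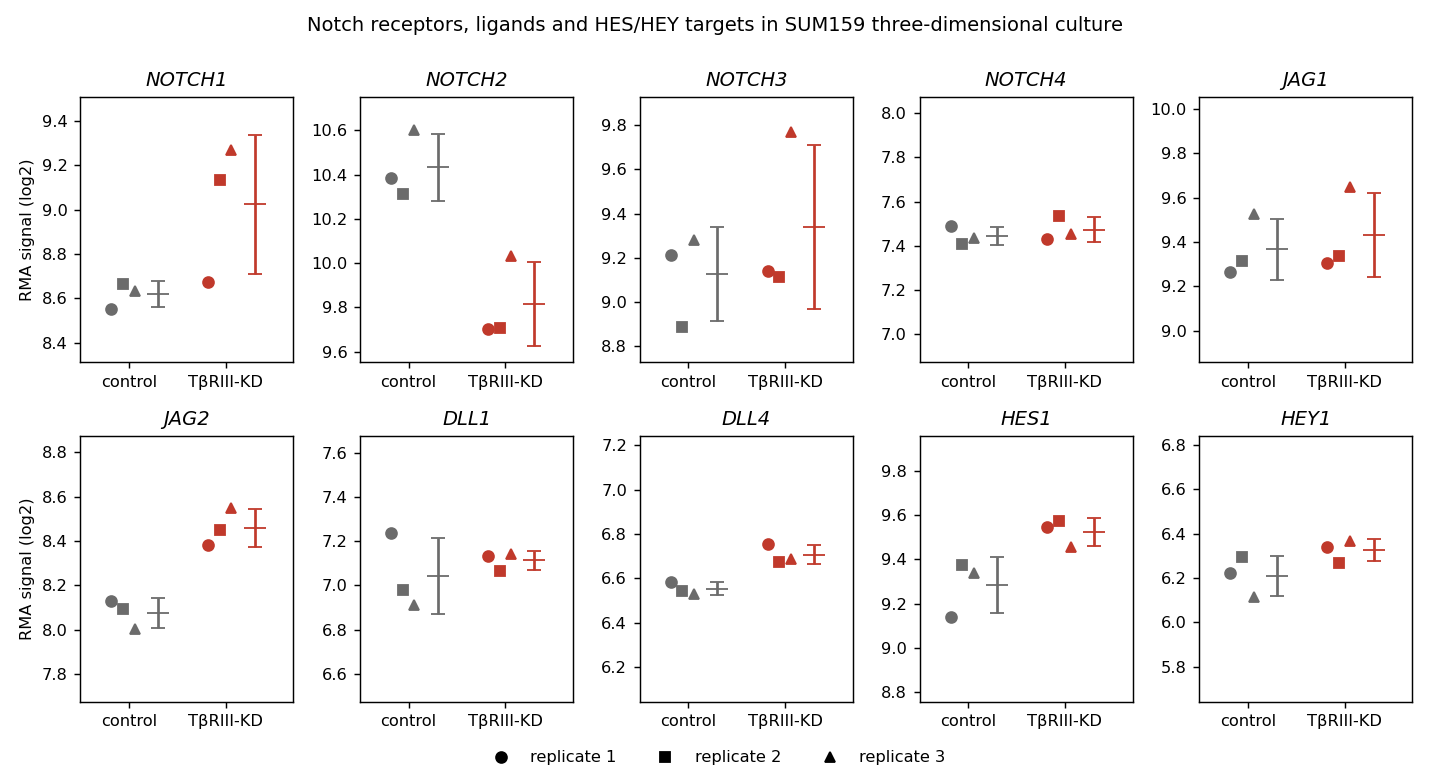
RMA signal (log2) of each Notch gene on each SUM159 array, with a panel per gene. Grey symbols are control and red symbols TβRIII-KD arrays, their shape gives the replicate number, and bars beside them give the group mean ± SD (n = 3). NOTCH2 lies at 10.31 to 10.60 in controls and 9.70 to 10.03 in TβRIII-KD, JAG2 at 8.001 to 8.13 and 8.38 to 8.55, and the groups overlap for NOTCH3, NOTCH4, JAG1, DLL1 and HEY1.

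NOTCH2 had log2 signals of 10.38, 10.31 and 10.60 on control arrays 1, 2 and 3 and of 9.70, 9.71 and 10.03 on TβRIII-KD arrays 1, 2 and 3. Each control array lay above each TβRIII-KD array, and replicate 3 was the highest of its group on both sides. The mean was 10.43 ± 0.15 in controls and 9.81 ± 0.19 in TβRIII-KD (SD, n = 3), which is a difference of -0.62 in log2 (SE 0.12, 95% interval -0.88 to -0.35, adjusted p = 0.0258 from limma). An exact permutation of the 6 arrays gave p = 0.1 (two-sided), which is the lower limit of this design and the same for every member whose groups did not overlap. The call was lost without control 1 (adjusted p = 0.0928), control 3 (0.0956), TβRIII-KD 1 (0.0779) or TβRIII-KD 2 (0.110), where the log2 fold change lay between -0.64 and -0.53, and it held without TβRIII-KD 3 (0.00779), the array that stood apart, and without control 2 (0.0465). It was lost by the methods' t-test (adjusted p = 0.218).

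Part of NOTCH2 has near-identical copies in the genome, the NOTCH2NL genes. A further transcript cluster that is annotated to NOTCH2NLA, NOTCH2NLB and NOTCH2 together had signals of 10.92, 10.87 and 11.03 in controls and 10.72, 10.66 and 10.79 in TβRIII-KD. It was lower in TβRIII-KD on each array, with a smaller log2 fold change of -0.21 (SE 0.08, adjusted p = 0.217) that did not pass the test. Which of the 3 genes its probes report cannot be told apart. The 10 measured genes nearest to NOTCH2 by order on its chromosome, 5 on each side, were listed after the values of NOTCH2 were seen. No limit was set on their distance. Of these, 7 had higher and 3 had lower means in TβRIII-KD, where 54.7% of all transcript clusters were higher. Their log2 fold changes lay between -0.15 and 0.48.

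NOTCH1, the receptor with the widest difference between knockdown arrays after NOTCH3, had a higher mean in TβRIII-KD but did not pass the test. Its log2 signals were 8.55, 8.67 and 8.63 on the control arrays and 8.67, 9.13 and 9.27 on the TβRIII-KD arrays. The control arrays lay close together, and TβRIII-KD 1 was only just above them while TβRIII-KD 2 and 3 were well above. The log2 fold change was 0.41 (SE 0.14, 95% interval 0.08 to 0.73, adjusted p = 0.201 from limma). Without TβRIII-KD 1 it was 0.58 with an adjusted p of 0.0192, and without any other single array the adjusted p was 0.312 to 0.460. The spread within the groups was at the 92.2 percentile of all transcript clusters for NOTCH1 and at the 97.3 percentile for NOTCH3.

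NOTCH3, a receptor known from vascular smooth muscle and also expressed in breast cancer, had signals of 9.21, 8.89 and 9.28 in controls and 9.14, 9.11 and 9.77 in TβRIII-KD. The groups overlapped, and the high mean of TβRIII-KD came from its array 3. The log2 fold change was 0.21 (SE 0.18, 95% interval -0.20 to 0.62, adjusted p = 0.647 from limma) and was -0.0020 without TβRIII-KD 3. NOTCH4, a receptor best known from endothelial cells, had signals of 7.49, 7.41 and 7.44 in controls and 7.43, 7.54 and 7.45 in TβRIII-KD. Its groups overlapped and its spread was among the smallest, at the 7.6 percentile, so that the log2 fold change of 0.028 had a 95% interval of only -0.13 to 0.19 (adjusted p = 0.902). The sign turned without TβRIII-KD 2, to -0.0044. The mean signal of NOTCH4 lay below the median, at the 45.4 percentile of all transcript clusters. Its narrow interval may not describe an expressed gene.

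NOTCH1 and NOTCH2 were also compared on the same array. The signal of NOTCH1 minus that of NOTCH2 was -1.83, -1.65 and -1.97 on the control arrays and -1.03, -0.58 and -0.76 on the TβRIII-KD arrays (log2). Each knockdown array lay above each control array, and the difference changed by 1.02 between the group means. Since the arrays of both genes already lay apart in opposite directions, this separation was fixed and is given without a test. This pair, and the pair of Jagged ligands described with the ligands, was chosen after the values were seen. Signals of different genes depend on their probes, so the change of the difference can be read, but not which receptor had more RNA.

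**Figure D2:**
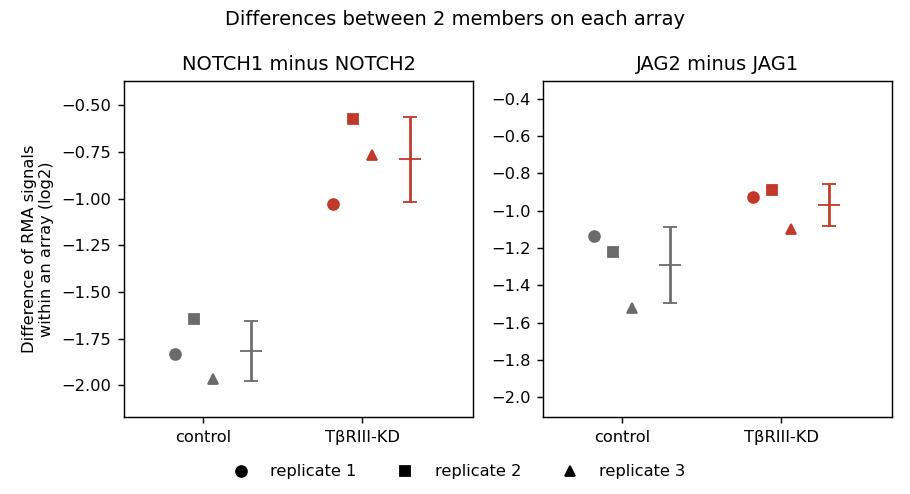
Difference between the RMA signals (log2) of a pair of members on the same array, NOTCH1 minus NOTCH2 and JAG2 minus JAG1, with control arrays as grey and TβRIII-KD arrays as red symbols whose shape gives the replicate number, and bars for the group mean ± SD (n = 3). The receptor difference runs from -1.97 to -1.65 in controls and from -1.03 to -0.58 in TβRIII-KD, and the ligand difference from -1.52 to -1.13 and from -1.10 to -0.89.

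Among the ligands, JAG2 had log2 signals of 8.13, 8.09 and 8.001 on the control arrays and 8.38, 8.45 and 8.55 on the TβRIII-KD arrays. The groups lay clearly apart and each was narrow, with means of 8.07 ± 0.07 and 8.46 ± 0.08 (SD, n = 3). The log2 fold change of 0.38 (SE 0.08, 95% interval 0.21 to 0.56) had an adjusted p of 0.0349 from limma. It did not reach the study's fold limit of 0.5. The call was lost whichever single array was left out, with adjusted p = 0.105, 0.103 and 0.145 without control 1, 2 or 3 and 0.0529, 0.0979 and 0.0691 without TβRIII-KD 1, 2 or 3, while the log2 fold change stayed between 0.34 and 0.42. It was also lost by the methods' t-test (adjusted p = 0.144). Of the 10 measured neighbors of JAG2 by order on its chromosome, 6 had higher and 4 had lower means in TβRIII-KD, where 54.7% of all transcript clusters were higher. Their log2 fold changes lay between -0.06 and 0.30.

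JAG1, the other Jagged ligand, had signals of 9.27, 9.31 and 9.52 in controls and 9.30, 9.34 and 9.65 in TβRIII-KD. The groups overlapped, replicate 3 was the highest of both, and the log2 fold change was 0.062 (SE 0.11, 95% interval -0.20 to 0.32, adjusted p = 0.853 from limma), or -0.047 without TβRIII-KD 3. JAG2 minus JAG1 was -1.13, -1.22 and -1.52 on the control arrays and -0.92, -0.89 and -1.10 on the TβRIII-KD arrays. These groups did not overlap, by a margin smaller than the spread within either, and the difference changed by 0.32.

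The Delta-like ligands had signals below the array median. DLL4, a ligand of sprouting blood vessels, had signals of 6.59, 6.54 and 6.53 in controls and 6.76, 6.68 and 6.69 in TβRIII-KD. The knockdown arrays were all higher by a small step, a log2 fold change of 0.15 (SE 0.07, 95% interval -0.00098 to 0.31, adjusted p = 0.333 from limma) that did not pass the test. DLL1, a ligand studied in mammary stem cells, had signals of 7.24, 6.98 and 6.91 in controls and 7.13, 7.06 and 7.14 in TβRIII-KD. The knockdown arrays lay within the range of the controls, with a log2 fold change of 0.070 (SE 0.10, 95% interval -0.15 to 0.29, adjusted p = 0.792).

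The targets HES1 and HEY1 encode transcriptional repressors that carry the Notch signal onward. HES1 had log2 signals of 9.14, 9.37 and 9.34 on the control arrays and 9.55, 9.58 and 9.45 on the TβRIII-KD arrays. The knockdown arrays were all higher, and control 1 was the lowest array. The log2 fold change of 0.24 (SE 0.09, 95% interval 0.04 to 0.44) had an adjusted p of 0.214 from limma and did not pass the test. HEY1 had signals of 6.22, 6.29 and 6.11 in controls and 6.34, 6.27 and 6.37 in TβRIII-KD. Its groups overlapped at low signal, and the log2 fold change was 0.12 (SE 0.08, 95% interval -0.06 to 0.29, adjusted p = 0.544).

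**Figure D3:**
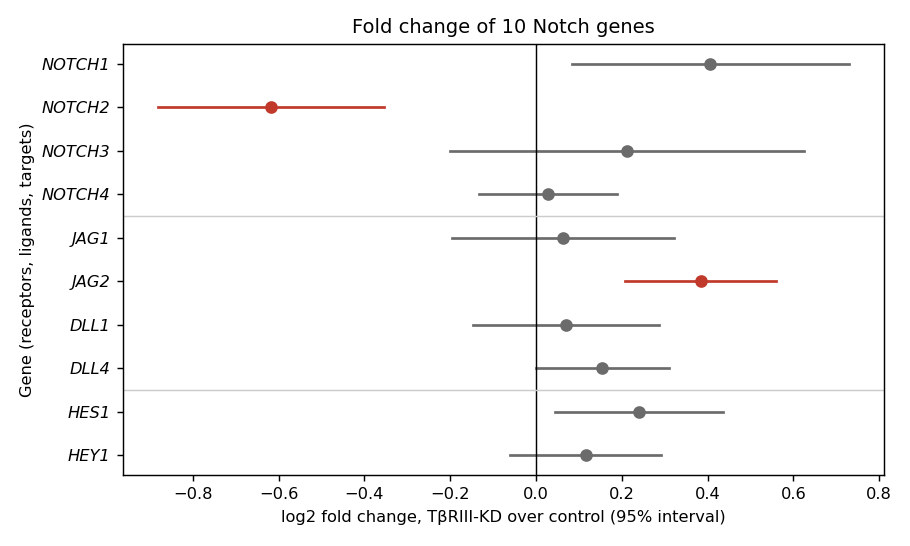
Change of the 10 Notch genes in TβRIII-KD relative to control (log2), ordered as receptors, ligands and targets. Each dot is drawn with the 95% interval that limma gave for 3 against 3 arrays, in red where the adjusted p was under 0.05. NOTCH2 lies below 0 at -0.62, JAG2 above 0 at 0.38, and the interval of NOTCH3 is the widest.

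The order of arrays within the groups was also read. On TβRIII-KD 3 the signal was the highest of the knockdown arrays for 7 of 10 members, NOTCH1, NOTCH2, NOTCH3, JAG1, JAG2, DLL1 and HEY1. Of these, NOTCH2, NOTCH3 and JAG1 were also highest on control 3 among the controls. HES1 was lowest on TβRIII-KD 3 among the knockdown arrays. The part of this array in the results of NOTCH1, NOTCH3 and JAG1 is given by the values without it, where the log2 fold change was 0.28 for NOTCH1 (adjusted p = 0.316) and close to 0 for the other two.

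Other genes of the pathway, from 8 lists written with textbook roles, were mostly without a difference that passed the test. Differences are given as TβRIII-KD minus control. Of 75 listed genes 68 were measured by a transcript cluster of their own. KAT2B was the only one with an adjusted p under 0.05, and 38 had higher and 30 had lower means in TβRIII-KD, with a median log2 fold change of 0.019. The arrays did not overlap for 17 of these 68 genes, where 20.7% of all transcript clusters did not. An unadjusted p under 0.05 in limma was found for 11 of the 68 genes, where 15.2% of all transcript clusters had one, and the limma counts of single lists at that threshold are to be read against this share. The share of all transcript clusters by the methods' t-test was not counted. The counts by that test therefore have no share to be read against and cannot be called high or low.

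KAT2B, a histone acetyltransferase that the intracellular part of Notch recruits as a co-activator, was 1.58-fold higher in TβRIII-KD. Its log2 signals were 8.51, 8.39 and 8.33 in controls and 9.11, 9.11 and 8.98 in TβRIII-KD. The groups lay far apart relative to their spread (log2 fold change 0.66, SE 0.08, adjusted p = 0.00398 from limma), and the adjusted p stayed between 0.00465 and 0.0242 whichever array was left out. By the methods' t-test it was 0.0862, which ends the call, as that test did for every other listed gene that passed in limma. KAT2B serves many other transcription factors as well. RBPJ and the other co-activators, 7 genes of 8, did not pass the test, with log2 fold changes from -0.24 for KAT2A, a related acetyltransferase, to 0.13 for MAML2, a scaffold of the RBPJ complex. RBPJ itself differed by -0.063 in log2 (adjusted p = 0.754).

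Among 8 genes of the proteases that cut the receptor and their subunits, 2 had an unadjusted p under 0.05 in limma and as many by the methods' t-test, while 0 passed adjustment in limma. ADAM17, a protease that can cut Notch receptors and also sheds many other surface proteins, differed by -0.29 in log2 (SE 0.08, adjusted p = 0.0866). ADAM10, the other ADAM protease of the list, differed by 0.22 in the opposite direction (adjusted p = 0.366). APH1B, a subunit of γ-secretase, differed by 0.28 (adjusted p = 0.0977), and NCSTN, another subunit, by -0.033. Of 9 co-repressors, 0 passed in limma, 2 had an unadjusted p under 0.05 in limma and 2 by the methods' t-test. Their median log2 fold change of 0.10 stood above that of all transcript clusters (0.014), and SPEN, a repressor that binds RBPJ, differed by 0.22 in log2 (SE 0.08, adjusted p = 0.187).

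Of 16 genes of endocytosis and ubiquitin transfer, 0 passed in limma, 2 had an unadjusted p under 0.05 in limma and 3 by the methods' t-test. DTX3L, a Deltex-type ubiquitin ligase, differed by -0.28 in log2 (SE 0.08, adjusted p = 0.107), NUMBL, related to the Notch inhibitor NUMB, by -0.27 (adjusted p = 0.140), and NUMB by 0.013 (adjusted p = 0.951). Of 5 glycosyltransferases, which add sugars to the receptor, and of 7 further ligands, 0 passed in limma and 0 had an unadjusted p under 0.05 by limma or the methods' t-test. MFNG, a Fringe enzyme, differed by 0.13 in log2 (adjusted p = 0.585), and DNER, a ligand of neurons, by -0.22 (adjusted p = 0.445).

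The other HES and HEY genes gave no common direction, with 4 of 8 higher and 4 of 8 lower and a median log2 fold change of 0.030. None passed in limma, 1 had an unadjusted p under 0.05 in limma and 2 by the methods' t-test. HES7, which acts in the clock of the embryonic somites, differed by -0.26 in log2 (SE 0.11, adjusted p = 0.299). The genes whose promoters held GTGGGAA or TTCCCAC had log2 fold changes of 0.24 (HES1), 0.10 (HES4), 0.08 (HES5), 0.10 (HEY2) and -0.0016 (HEYL). Those whose promoters held neither had values of 0.06 (HES2), -0.08 (HES3), -0.11 (HES6) and -0.26 (HES7). None of these passed the test, so the order is given as a description. In controls HES2, HES3, HES5, HES6, HEY2 and HEYL had means below the median array signal, from 5.85 (HEY2) to 7.47 (HES5). Their small differences may not reflect expressed genes. NRARP, a target that dampens Notch signals and whose promoter held neither GTGGGAA nor TTCCCAC, differed by 0.11 in log2 (adjusted p = 0.606).

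Of 7 genes outside the HES and HEY families that Notch is known to activate, NRARP among them, 0 passed in limma. An unadjusted p under 0.05 was found for 3 in limma and 3 by the methods' t-test, all higher in TβRIII-KD. SOX9, a transcription factor of progenitor cells, had signals of 8.17, 7.97 and 7.94 in controls and 8.35, 8.50 and 8.40 in TβRIII-KD (log2 fold change 0.39, SE 0.09, adjusted p = 0.0503 from limma, and 0.0308 to 0.206 over the alternatives tried). The cell cycle inhibitor CDKN1A differed by 0.38 in log2 (adjusted p = 0.0569) and SNAI2, a transcription factor of mesenchymal cells, by 0.27 (adjusted p = 0.0981). CCND1 and MYC, which drive the cell cycle and growth, had values of 0.14 (adjusted p = 0.571) and -0.11 (adjusted p = 0.571). SOX9, CDKN1A, SNAI2, CCND1 and MYC each answer to several pathways besides Notch.

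**Figure D4:**
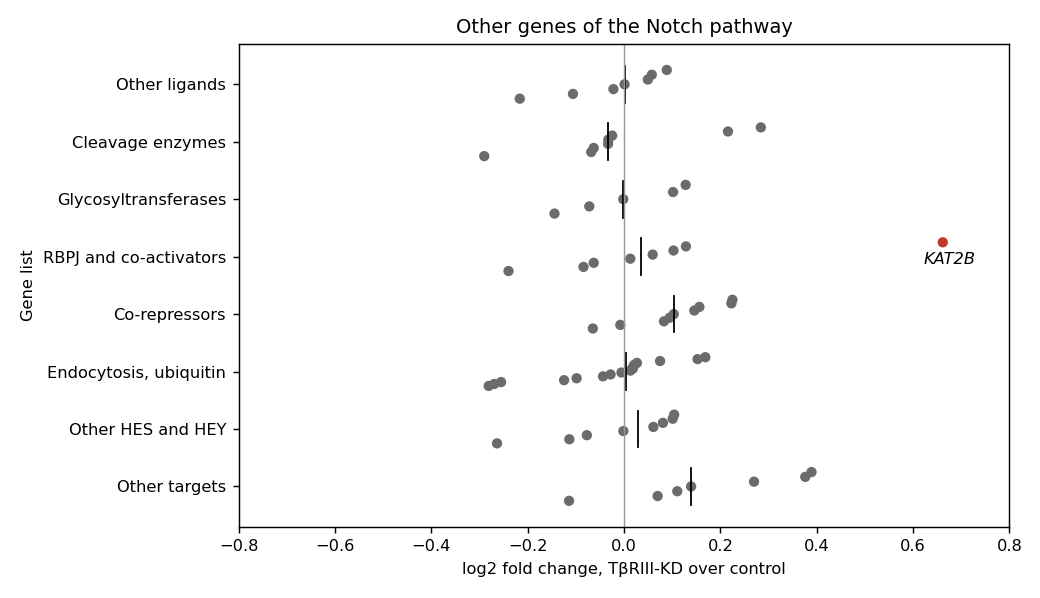
Change in TβRIII-KD relative to control (log2) of 68 other genes of the Notch pathway, with a dot per gene, grouped in 8 lists, a vertical line at the median of each list and red for an adjusted p under 0.05 from limma. KAT2B lies at 0.66, and the other genes lie between -0.29 and 0.39.

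Since NOTCH4 and DLL4 are typical of endothelial cells, markers of these were read beside them. The counts that passed in each marker list are to be read against the 3.35% of all transcript clusters that did. Of 8 endothelial markers, 3 passed the test in limma, all lower in TβRIII-KD: KDR at a log2 fold change of -1.73, PECAM1 at -1.04 and ERG at -0.47. The mean signal of the endothelial list was 7.01 to 7.15 on the control arrays and 6.60 to 6.79 on the TβRIII-KD arrays. Yet 4 of the 8 had higher and 4 had lower means in TβRIII-KD, with a median log2 fold change of -0.054. VWF, TEK and TIE1 had control signals of 5.82, 5.45 and 6.16 and log2 fold changes of 0.08, 0.06 and 0.05. CDH5 and CLDN5 had log2 fold changes of -0.16 and 0.05. Of 5 leukocyte markers measured, 0 passed in limma and 0 had an unadjusted p under 0.05 by limma or the methods' t-test. Of 8 luminal markers 1 passed, GATA3, a luminal transcription factor, which rose by 0.68 on the log2 scale (adjusted p = 0.00858). KRT18, a keratin of simple epithelia, differed by -0.38 (adjusted p = 0.217) and EPCAM by -0.15 (adjusted p = 0.445), and 6 of the 8 had higher means in TβRIII-KD. Of 8 mesenchymal markers 1 passed, SPARC, a matrix protein, which fell by 0.45 (adjusted p = 0.0189). AXL, a receptor tyrosine kinase, differed by 0.18 (adjusted p = 0.243), CDH2 by 0.13 (adjusted p = 0.587) and CAV1 by 0.12 (adjusted p = 0.761), and 5 of the 8 had lower means. The part of these changes in the results of the Notch genes was not tested.

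Genes that followed the members most closely over the 6 arrays were found by Pearson correlation among all genes, as a description without a test, since a difference between the groups alone gives a high value. For NOTCH2 these were STEAP3, a metalloreductase (r = 0.997), LPP, a LIM domain protein of focal adhesions (r = 0.997), and RTN4RL2, a receptor of the Nogo receptor family (r = 0.997), and 201 genes had an r over 0.95. LPP was lower in TβRIII-KD by a log2 fold change of -0.57 (adjusted p = 0.04 from limma), while STEAP3 (-0.26, adjusted p = 0.136) and RTN4RL2 (-0.19, adjusted p = 0.241) did not pass the test. For JAG2 they were PDE3A, a phosphodiesterase (r = 0.997), SLA, an adaptor protein (r = 0.996), and CDH18, a cadherin (r = 0.994), and 120 genes had an r over 0.95. CDH18 was higher in TβRIII-KD by 1.13 (adjusted p = 0.00153), while PDE3A (0.28, adjusted p = 0.0950) and SLA (0.16, adjusted p = 0.309) did not pass.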

How the data were processed

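RNA of 6 SUM159 samples was hybridized to Affymetrix Human Gene 1.0 ST arrays, scanned with AGCC 3.2.4. The deposited values are log2 signals, and per the labels and methods the authors obtained them by RMA with oligo under R 3.0.1 (background correction, quantile normalization, median polish), with limma for their own comparison. The sources used here give no version of oligo or limma. Depth has no meaning for arrays, whose number limits the precision. Here, limma 3.58.1 in R 4.3.3 compared TβRIII-KD with control over all 22148 transcript clusters (two-sided, Benjamini-Hochberg), without filter, covariate or block. Intervals are limma's 95% intervals. A gene was read from clusters with 1 gene symbol, by that with the highest mean. Named were all members, TGFBR3, each list's genes with an adjusted p under 0.05 or else its smallest p, and the 3 genes most correlated with each member that passed. Others were named after their values were seen. Members and lists were chosen with earlier results of these data known. Same-numbered arrays were not taken as pairs (correlations of their deviations from group means -0.06, 0.11 and 0.31). The methods' t-test, on the same values, is the unpaired two-tailed test of the study's statistics section. The procedure was tested on simulated data. Promoter sequences and gene order are those of RefSeq, GRCh38.p14.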

Additional observations from a re-analysis of the deposited data

How the results depend on the processing

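Each of the 10 members kept its direction in every alternative tried, except NOTCH3, NOTCH4 and JAG1, whose log2 fold changes ran from -0.0020 to 0.33, -0.0044 to 0.049 and -0.047 to 0.14 when single arrays were left out. The number of members at the study's cutoff, 1, was 0 by the methods' t-test with adjustment (4 at an unadjusted p under 0.05, as in limma), 0 at a fold limit of 1 and 2 at a fold limit of 0.3. It ran from 0 to 1 when single arrays were left out, with 2 to 4 at an unadjusted p under 0.05. With all arrays in limma, 15.2% of all transcript clusters had an unadjusted p under 0.05. The shares of all clusters called under the alternatives were not counted. The changes of the counts in this section therefore cannot be read as particular to the Notch genes. Without TβRIII-KD 1 the member called was NOTCH1, not NOTCH2. The number with an adjusted p under 0.05, 2, was 0 by the methods' t-test and 0 to 1 when single arrays were left out. With the replicate number as a block it was 1, NOTCH2 (adjusted p = 0.00432), and JAG2 had an adjusted p of 0.0557. Of the 68 other pathway genes, the 1 at the cutoff became 0 by the methods' t-test (13 at an unadjusted p under 0.05, 11 in limma) and 0 at a fold limit of 1, and stayed at 1 without any single array. Without the fold limit the number was 3 with a trend in the moderation, 3 among clusters at or above the median signal, 2 among clusters with 1 symbol, 2 on median-centred arrays, 2 with the replicate block, 2 with the mean of a gene's clusters, 0 by the methods' t-test and 1 to 2 without single arrays. The adjusted p of KAT2B was 0.0862 by the methods' t-test and that of NOTCH2 0.218. The causes were not tested. Centring or repeating quantile normalization moved the median log2 fold change of all clusters from 0.014 to 0.013 and 0.014. NOTCH4, DLL1, DLL4 and HEY1 lie below the median signal and have no value under that filter. Groups of 3 arrays can leave small changes uncalled. The intervals given are not adjusted for the number of clusters, so they understate the size a change needs to pass. Those of NOTCH1 (0.08 to 0.73) and HES1 (0.04 to 0.44) lay above 0, and neither gene passed the adjusted test.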
